A study of Homo sapiens with 16 samples.

Results

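MITF and MAFG occupied 6498 regions together, away from any H3K4me3 peak, in WM164 cells overexpressing GFP. WM164 is an established human melanoma line, and occupancy was mapped by CUT&RUN, in which an antibody directs a nuclease to a DNA-bound protein so that nearby fragments are released and sequenced. Overlapping peaks of the 6 factor lists of GFP cells (3 per antibody) were merged into 43576 regions. A region was kept if at least 2 of 3 anti-MAFG and at least 2 of 3 anti-MITF lists had a peak in it and no H3K4me3 peak of either line overlapped it. Of the 10347 regions shared by both antibodies, 3849 overlapped H3K4me3 and 6498 did not; the latter are the co-bound distal regions described here. The regions were chosen by the peak calls in GFP cells, so those calls and their enrichments are given as a description.

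Both lines compared were WM164: one overexpressing GFP as the control and one overexpressing MAFG. In each line anti-MAFG and anti-MITF were profiled in 3 libraries each and anti-H3K4me3 in 1 library, and the 2 libraries made with the anti-rabbit IgG control were not analysed here. The labels give numbered libraries and do not say whether they came from separate cultures, so p-values measure only the spread between these libraries.

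MITF is a basic helix-loop-helix leucine zipper factor that binds E-box sequences and governs pigment cell identity, survival and proliferation in melanocytes and melanoma. MAFG is a small MAF protein, a leucine zipper factor without an activation domain of its own, which pairs with partners such as NRF2, NRF1 and the BACH repressors on MAF recognition and antioxidant response elements. H3K4me3 marks active promoters, so sites without it are often enhancers or other distal elements.

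The lists hold peaks and no read totals, so sequencing depth is unknown. The 6 GFP-cell lists held 14879 to 26221 peaks and the 6 MAFG-cell lists 1836 to 2818. Both sets of lists stopped at nearly the same −log10 q (2.004 to 2.024 and 2.0 to 2.149), but the lowest −log10 p was 4.19 to 4.45 in GFP-cell lists and 5.20 to 5.47 in MAFG-cell lists. The control used in calling is not given in the sources used here, so line and calling cannot be told apart in any comparison between lines. Among the 5 melanocyte markers with a start site in the RefSeq promoter table, TYR, DCT, MLANA and MITF carried an H3K4me3 peak within 1 kb of a start in both lines and TYRP1 did not. None of the 2 keratinocyte, 2 hepatocyte and 3 T cell markers with a start site did in either line.

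Sequence could be read for the few co-bound distal regions that overlap a RefSeq promoter window, which runs from 250 bases before to 50 after a gene's start, since no genome sequence was used. These were 187 windows of 176 genes, of which 63 code for protein, and they touched 176 regions. The 250 upstream bases of each window were searched on both strands for the MITF motifs CACGTG and CATGTG and the AP-1-like TGAGTCA. Loose forms of other elements, with 4 bases left free, were searched too. The antioxidant response element (ARE) core was read as TGA, any 4 bases and GCA. The longer MAF recognition element (MARE) was read as that loose core with TGC directly before it, and is counted under both. CATGTG occurred in 18.2% of these windows against 9.45% of all 34943 windows, and TGAGTCA in 16.6% against 4.22%. In the 64 windows at distal MITF regions without MAFG, CATGTG occurred in 25% and TGAGTCA in 7.81%. In the 159 windows at distal MAFG regions without MITF these shares were 11.95% and 11.3%, and the differences between sets were not tested. CACGTG was found in 5.35% against 6.32%, the loose ARE core in 11.2% against 10.2%, and the loose MARE in 0.535% against 0.286%, a single window. The CACGTG share was 18.75% at distal MITF regions without MAFG and 3.145% at distal MAFG regions without MITF. At co-bound regions with H3K4me3 it was 9.131%, and these differences were not tested either.

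These 6 windows are printed because they show each motif inside a co-bound distal region. All are RefSeq sequences of GRCh38.p14, 5′ to 3′ on the strand of the gene and ending at the base before its start, with motif matches in capitals. The first 3 lie in strongly enriched regions and the last 3 are protein-coding genes; all 6 were chosen after their values were seen. They are, in order, chr3:64187294-64187543 (+), chr3:72664250-72664499 (−), chr3:66972419-66972668 (−), chr15:33068175-33068424 (−), chr5:88785512-88785761 (−) and chr2:29223824-29224073 (−).
PRICKLE2-AS3: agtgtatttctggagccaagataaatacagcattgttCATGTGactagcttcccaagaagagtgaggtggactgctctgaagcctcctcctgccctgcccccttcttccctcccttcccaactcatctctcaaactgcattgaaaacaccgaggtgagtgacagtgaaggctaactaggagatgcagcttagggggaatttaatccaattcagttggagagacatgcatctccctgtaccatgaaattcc
LOC105377162: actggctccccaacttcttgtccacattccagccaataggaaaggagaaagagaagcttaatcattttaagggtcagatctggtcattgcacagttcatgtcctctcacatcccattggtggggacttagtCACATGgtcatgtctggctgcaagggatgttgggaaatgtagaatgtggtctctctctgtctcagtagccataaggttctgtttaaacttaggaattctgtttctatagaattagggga
LOC105377144: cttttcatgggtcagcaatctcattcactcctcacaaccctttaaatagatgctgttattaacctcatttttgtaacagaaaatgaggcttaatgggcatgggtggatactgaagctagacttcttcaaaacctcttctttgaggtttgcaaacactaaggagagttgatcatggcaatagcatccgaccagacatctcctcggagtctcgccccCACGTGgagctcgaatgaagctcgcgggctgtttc
FMN1: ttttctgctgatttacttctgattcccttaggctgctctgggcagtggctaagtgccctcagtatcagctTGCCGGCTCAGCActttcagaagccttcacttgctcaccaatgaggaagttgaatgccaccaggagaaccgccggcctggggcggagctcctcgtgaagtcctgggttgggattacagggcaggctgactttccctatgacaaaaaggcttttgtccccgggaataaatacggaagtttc
MEF2C: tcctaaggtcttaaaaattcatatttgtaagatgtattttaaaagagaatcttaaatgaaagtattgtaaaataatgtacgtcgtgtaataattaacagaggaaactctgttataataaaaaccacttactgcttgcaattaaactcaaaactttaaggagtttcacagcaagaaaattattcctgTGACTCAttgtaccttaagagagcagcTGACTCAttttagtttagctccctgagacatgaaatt
ALK: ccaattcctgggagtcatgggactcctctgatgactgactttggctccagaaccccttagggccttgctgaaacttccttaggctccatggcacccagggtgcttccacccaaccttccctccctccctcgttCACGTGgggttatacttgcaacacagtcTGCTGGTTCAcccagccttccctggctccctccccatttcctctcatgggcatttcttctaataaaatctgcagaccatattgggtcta

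The PRICKLE2-AS3 window carries CATGTG at position -213 relative to the start, 232 bp from the median anti-MAFG summit and 230 bp from the median anti-MITF summit. Its region was called in all 6 MAFG-cell lists. LOC105377162 also carries CATGTG, on the reverse strand, in the region near SHQ1 that was again called in all 6 lists. This match lies 471 bp from the median anti-MAFG summit and 451 bp from the median anti-MITF summit. LOC105377144 has CACGTG at position -35, and its region was called in no MAFG-cell list although its anti-MAFG fold in GFP cells was 30.3, 21.3 and 18.7. A match is a description of letters and not evidence of a bound site.

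The FMN1 window, upstream of the actin nucleator formin 1, holds the only match to the loose MARE. It lies 172 bp from the anti-MAFG summit and 226 bp from the anti-MITF summit. This region was called by anti-MAFG in 3 of 3 MAFG-cell lists (fold 14.3, 8.19 and 6.95) and by anti-MITF in none. MEF2C, a MADS-box transcription factor, has a pair of TGAGTCA matches at positions -64 and -37, 76 and 104 bp from the anti-MAFG summit. ALK, a receptor tyrosine kinase, has CACGTG and the loose ARE core. Its region was called in all 6 MAFG-cell lists, with an anti-MITF fold of 9.36, 11.3 and 10.2 there. CACGTG lies 460 bp from the anti-MAFG summit and 551 bp from the anti-MITF summit, and the loose ARE core 490 and 581 bp.

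The regions were broad and most lay far from the starts in the table. Their median width was 1479.5 bp (quartiles 1172 and 1883). The median distance to the nearest start of a protein-coding gene was 77.1 kb (quartiles 29.1 and 188.4) over the 6017 regions on chromosomes with start sites in the table. Only 15843 of 20037 protein-coding genes have a start there, so these distances are upper limits: the region 3538 bp from HMOX1 was listed 76.5 kb from the nearest start. Shares of regions near a start are likewise lower limits. Of the 6017 regions, 92 (1.53%) lay within 1 kb of such a start, against 61.8% of the co-bound regions at H3K4me3, and the nearest H3K4me3 peak was a median of 82.8 kb away. About 49.9% overlapped a protein-coding gene, 16.2% only a long non-coding RNA gene and 34.0% neither. As far as the table goes the distal label holds for most regions, and 157 overlapped a start of any gene.

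Because regions were built by merging overlapping peaks, each of the 6498 had to hold an anti-MAFG peak that overlapped an anti-MITF peak. Of them, 3184 were called in all 6 GFP-cell lists. A further 1225 had 2 anti-MAFG and 3 anti-MITF lists, 1271 had the reverse and 818 had 2 of each. The median percentile of fold enrichment within a list was 48.5 for regions called by 2 of 3 anti-MAFG lists and 33.6 for the 1443 regions just outside the rule with 1 of 3. For anti-MITF it was 40.1 with 2 of 3 lists and 31.1 for the 2499 regions with 1 of 3. Across the 6498 regions the mean anti-MAFG and anti-MITF percentiles had a Spearman rho of 0.31, a description over regions that share the same 6 libraries.

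Among the 12 regions with the best mean percentile, the one 17787 bp from HNRNPLL, a splicing regulator (chr2:38540162-38544182), had an anti-MAFG fold of 30.1, 25.4 and 21.8 and an anti-MITF fold of 22.3, 24.9 and 29.1 in GFP cells. The region 29438 bp from ZNF704, a zinc finger gene (chr8:80913857-80920564), was the widest of all at 6708 bp. Its anti-MITF fold was 41.9, 31.7 and 43.4 and its anti-MAFG fold 31.0, 18.9 and 16. A region 122195 bp from MYCN, a MYC family factor (chr2:16069199-16071370), had an anti-MAFG fold of 34.1, 25.6 and 29.9 and an anti-MITF fold of 23.8, 17.7 and 24.9.

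The remaining 9 of these 12 lay in or near LSAMP (a neural adhesion protein), ERC1 (a vesicle tethering scaffold), ABHD12 (a lysophospholipase), SINHCAF (a SIN3-HDAC subunit), INPP4B (a phosphoinositide phosphatase), GPD1L, SHQ1 (a snoRNP assembly factor), SGCD (a sarcoglycan) and PRICKLE2 (a planar polarity protein). The nearest gene is a label of position and not evidence of a target.

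**Figure D1:**
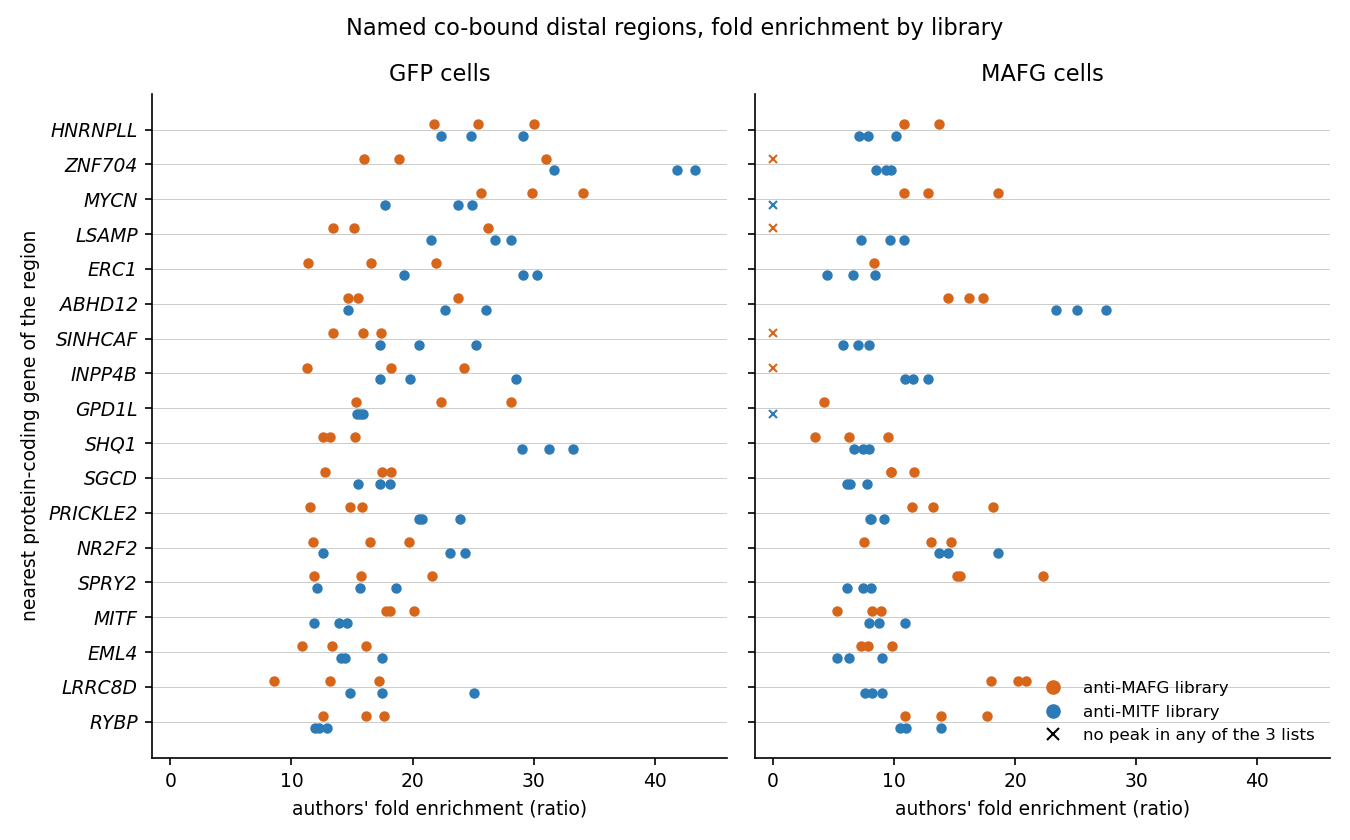
The authors' fold enrichment (ratio, x axis) of 18 named co-bound distal regions in each anti-MAFG and anti-MITF library of GFP cells (left) and MAFG cells (right), 1 point per library and a cross where none of the 3 lists has a peak. In MAFG cells the regions near ZNF704, LSAMP, SINHCAF and INPP4B have anti-MITF points only, and those near MYCN (3 lists) and in GPD1L (1 list) have anti-MAFG points only.

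Calls in MAFG cells were not used to choose the regions. In single anti-MAFG libraries of MAFG cells, 9.45%, 9.53% and 13.7% of the 6498 regions were called, and in single anti-MITF libraries 14.97%, 12.8% and 14.7%. The means were 10.9% ± 2.41 and 14.2% ± 1.197 (SD, n = 3 each), a difference of 3.28 percentage points in a two-sided exact permutation test (p = 0.2, adjusted p = 0.281 over 9 tests, smallest possible p 0.1). The third anti-MAFG library overlapped the range of the anti-MITF libraries. Without GFP-cell anti-MAFG library 1 or 2 the difference was 1.76 and 1.94 points, without a GFP-cell anti-MITF library 5.72 to 6.02, with 3 of 3 lists required 5.82 and with equal MAFG-cell peak numbers 1.87.

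By at least 2 of 3 lists, 599 regions (9.22%) were called with anti-MAFG in MAFG cells against 3.47% of all merged regions, and 833 (12.8%) with anti-MITF against 4.59%. Both antibodies called 181 regions (2.79%, background 0.654%) and all 6 lists 79 (1.22%, background 0.285%). No MAFG-cell list called 4411 regions (67.9%), against 86.6% of all merged regions and 71.8% of co-bound regions at H3K4me3. The background includes regions found in a single GFP-cell list, and the share called was higher where enrichment in GFP cells was higher. From the lowest to the highest of 5 equal classes of GFP-cell percentile, it went from 5.72% to 22.03% with anti-MAFG and from 3.31% to 40.2% with anti-MITF.

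**Figure D2:**
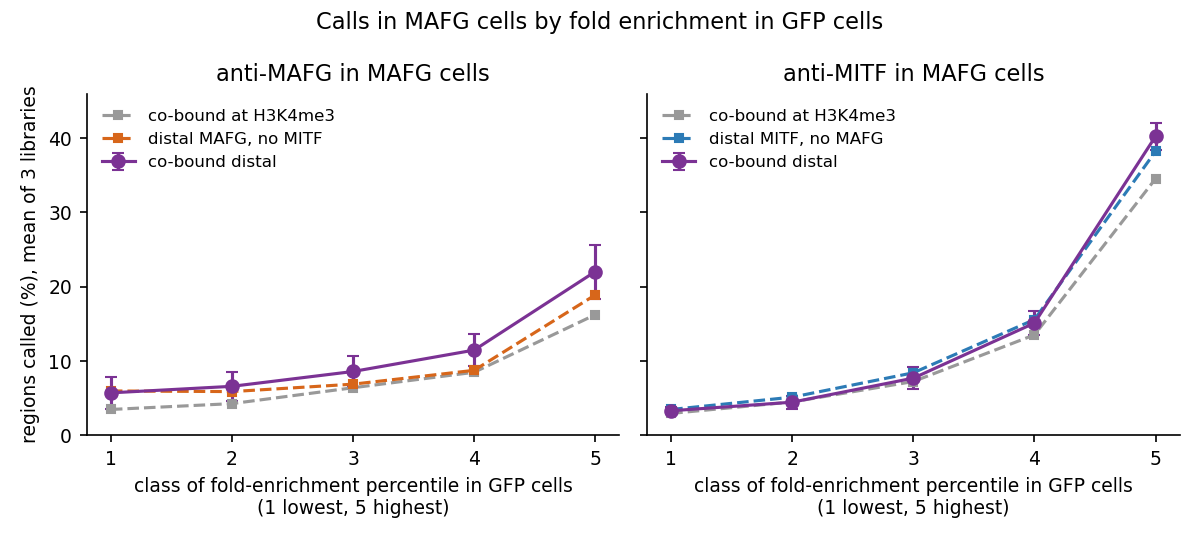
Share of regions called in MAFG cells (y axis, percent, mean of 3 libraries, bars SD for the co-bound distal regions) in 5 classes of fold-enrichment percentile in GFP cells for the same antibody (x axis). The co-bound distal regions go from 5.72% to 22.03% with anti-MAFG and from 3.31% to 40.2% with anti-MITF, and the other region sets have their highest share in class 5 too.

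Co-bound regions at H3K4me3 were the nearest comparison. With anti-MAFG they were called at 7.07% ± 1.04, and the distal regions were higher by 3.81 percentage points, in 3 of 3 libraries (two-sided exact sign-flip permutation test, p = 0.25, the smallest 3 libraries allow, adjusted p = 0.281). With anti-MITF the shares were 14.2% for both sets, a difference of -0.0048 points (exact sign-flip permutation test, p = 1.0), which changed sign under most other settings. The difference of these contrasts between antibodies was 3.82 points (exact permutation test, p = 0.1, adjusted p = 0.281, the smallest unadjusted p possible). It was 1.06 with −log10 q of at least 5 (exact permutation p = 0.4), 1.22 with summits trimmed to 200 bp, 1.49 within fold classes, 2.11 with 3 of 3 lists (exact permutation p = 0.2) and 2.36 with equal MAFG-cell peak numbers. Over all 6 libraries the distal regions were higher by 1.90 points in 5 of 6 (exact sign-flip permutation test, p = 0.156, adjusted p = 0.281). This pooled difference reached an unadjusted p of 0.0312, the smallest possible by that exact permutation test, at 2.36 points within classes of fold enrichment and at 3.93 points with 3 of 3 lists required. Without MAFG-cell anti-MAFG library 3 it was 1.204 points.

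Distal regions of 1 antibody alone had lower mean shares in MAFG cells. The exact sign-flip permutation tests over 3 libraries cannot go below p = 0.25, so they could not decide either difference. The 1984 distal MITF regions without any anti-MAFG peak were called with anti-MITF at 8.89% ± 1.06, 5.28 points below the co-bound regions in 3 of 3 libraries (exact sign-flip permutation test, p = 0.25, adjusted p = 0.281). Taken as co-bound minus MITF alone, the difference was -0.0037 points within 5 classes of GFP-cell fold enrichment and -5.98 points within 5 classes of region width, the opposite direction, and with −log10 q of at least 5 it was 2.29 points. The 4944 distal MAFG regions without MITF were called with anti-MAFG at 6.78% ± 1.26, 4.10 points lower in 3 of 3 libraries (exact sign-flip permutation test, p = 0.25, adjusted p = 0.281), and co-bound minus MAFG alone was 1.60 points within fold classes and -2.46 within width classes. Their median widths were 907.5 and 871 bp against 1479.5 bp. Within width classes the comparison sets had only 24 and 45 regions in the widest class.

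**Figure D3:**
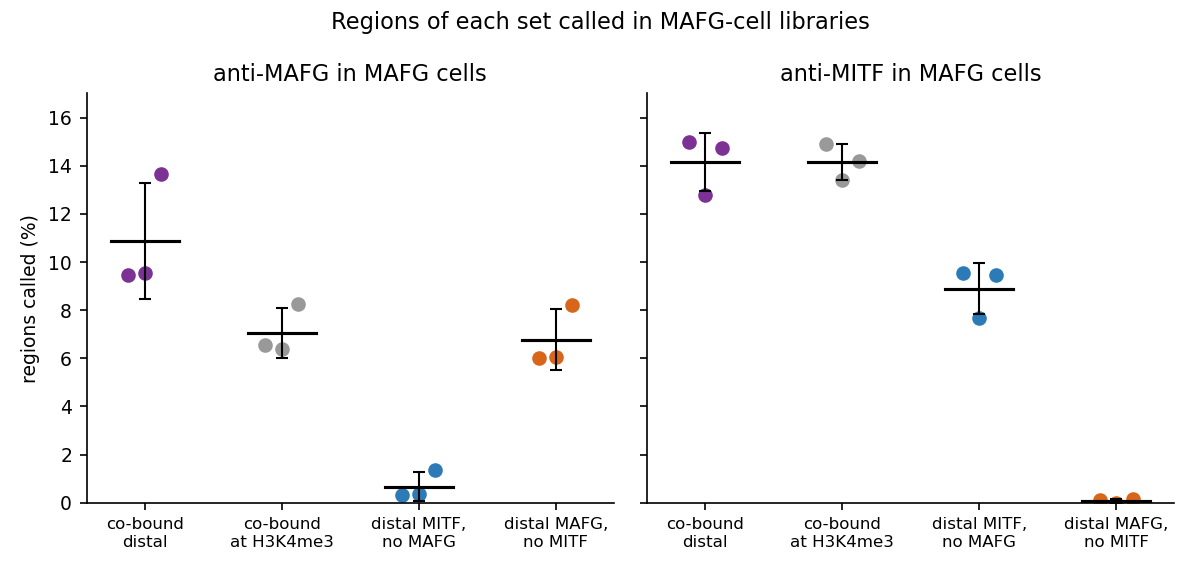
Share of regions called (y axis, percent) in each MAFG-cell library, 1 point per library with mean (line) and SD (bar), for 4 sets of GFP-cell regions, with anti-MAFG left and anti-MITF right. Co-bound distal regions average 10.9% with anti-MAFG and 14.2% with anti-MITF, and co-bound regions at H3K4me3 average 7.07% and 14.2%.

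The 79 regions called in all 6 MAFG-cell lists included one inside ABHD12 (chr20:25309168-25311417), with an anti-MAFG fold of 16.2, 17.4 and 14.4 and an anti-MITF fold of 25.2, 23.4 and 27.5 there. Inside MITF itself, chr3:69820112-69824633 had an anti-MAFG fold of 17.8, 20.2 and 18.2 in GFP cells, and in MAFG cells it was 8.91, 8.19 and 5.32. Its anti-MITF fold was 11.9, 13.9 and 14.6 in GFP cells, and in MAFG cells it was 7.95, 8.73 and 10.9. Folds of the lines were computed separately by the authors, so they are set side by side and not compared.

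Other regions of this kind lay 481562 bp from NR2F2 (an orphan nuclear receptor), 201623 bp from SPRY2 (an inhibitor of receptor tyrosine kinase signalling), 1381 bp from LRRC8D (a volume-regulated anion channel subunit), and near EML4 and RYBP. At LRRC8D the MAFG-cell anti-MAFG fold was 20.9, 20.3 and 18.0 and the anti-MITF fold 8.18, 7.58 and 9.03. Folds of different antibodies come from separate lists and are not ranked against each other.

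Some regions shared in GFP cells were called by a single antibody in MAFG cells. Anti-MAFG called 184 regions (2.83%) in 3 of 3 lists with no anti-MITF list, against 1.43% of all merged regions, and anti-MITF called 303 (4.66%) with no anti-MAFG list, against 1.91%. The former had a median GFP-cell percentile of 84.8 for anti-MAFG and 53.7 for anti-MITF, and the latter 56.2 and 90.8. The 79 regions in all 6 lists were high for both, at 85.2 and 88.8, and the 4411 without a call were at 61.5 and 51.4.

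Strong examples with anti-MAFG only were the region near MYCN (MAFG-cell fold 12.8, 10.8 and 18.6), one 48527 bp from CXADR, a virus receptor and junction protein, and one in DGKI, a diacylglycerol kinase. With anti-MITF only they included the regions near ZNF704 (8.52, 9.76 and 9.37), in LSAMP (10.8, 9.67 and 7.26), in INPP4B (12.8, 11.6 and 10.9) and in ANO1, a chloride channel. A region 11646 bp from SNAI2, a neural crest and mesenchymal transcription factor (chr8:48933075-48934885), belonged to this class too, with an anti-MITF fold of 6.02, 7.58 and 9.49 in MAFG cells. These examples have no test, and a missing call is not an absent signal.

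Regions came from merged overlapping peaks, so some nearness of the summits of the 2 factors was built in. In the 3184 regions called in all 6 GFP-cell lists, the median anti-MAFG summit was a median of 80 bp from the median anti-MITF summit (quartiles 30 and 347). They were within 50 bp in 37.7% of regions and more than 500 bp apart in 14.04%. At co-bound H3K4me3 regions called in all 6 GFP-cell lists the median was 94 bp, with 34.9% within 50 bp. These distances join median summits over 3 libraries, so they are not comparable with the following distances between single libraries. Between 2 libraries of the same antibody the median distance was 109.8 bp on average (100 to 123 over 6 pairs), and between libraries of different antibodies 138.8 bp (120 to 158 over 9 pairs). The difference of 29.0 bp had an exact permutation p of 0.1 (adjusted p = 0.281, 6 libraries), the smallest possible, and the 2 kinds of pair overlapped. With peaks trimmed to 200 bp around the summit it was 2.67 bp, a setting that by construction keeps only regions whose summits lie close.

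In MAFG cells the distances at these regions were 114.9 bp between and 74.8 bp within antibodies, a difference of 40.2 bp (exact permutation test, p = 0.1, adjusted p = 0.281), over 177 to 644 regions a pair. With trimmed summits this was 13.9 bp. At co-bound regions with H3K4me3 the GFP-cell distances were 157.1 and 124.0 bp. Replicates of 1 antibody were themselves about 100 bp apart, which limits how finely the positions of both factors can be separated.

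**Figure D4:**
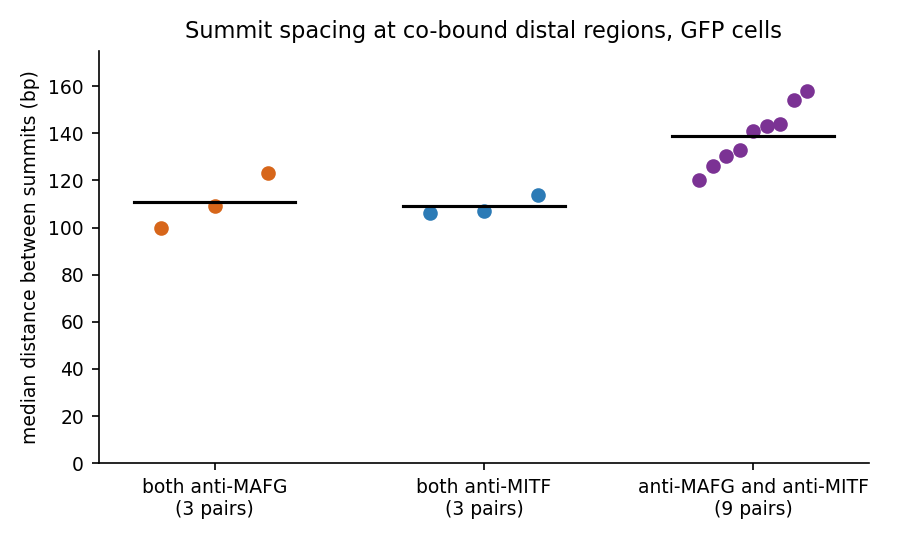
Median distance between the best summits (y axis, bp) of each pair of GFP-cell libraries at co-bound distal regions, 1 point per pair with the mean as a line. Pairs of the same antibody lie between 100 and 123 bp, and pairs of different antibodies between 120 and 158 bp.

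Co-bound distal regions were often neighbours. Of the 6498, 21.8% had another within 10 kb, against 14.4% of co-bound regions at H3K4me3, 8.67% of distal MITF regions without MAFG and 11.4% of distal MAFG regions without MITF. These sets differ in size, so the shares are a description. Joined over gaps of up to 10 kb, the regions gave 5723 clusters, of which 644 held 2 or more and 106 held 3 or more. The last count was 43 and 47 without GFP-cell anti-MAFG library 1 or 2, 65 to 69 without a GFP-cell anti-MITF library, 19 with 3 of 3 lists, 23 with trimmed summits, 45 with −log10 q of at least 5, and 45 and 227 with gaps of 5 and 20 kb.

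The largest cluster held 7 regions over 40.9 kb inside TANC1, a synaptic scaffold gene (chr2:159053957-159094865), and 3 of them were called in MAFG cells by each antibody. GAB2, a docking protein of receptor signalling, held 6 over 39.4 kb, of which none was called there with anti-MAFG and 1 with anti-MITF. SAMD4A, an RNA-binding repressor of translation, and NRP2, a semaphorin and VEGF co-receptor, held 5 each. Of 14 clusters of 4, the 6 covering most bases are named. They lay in IGF1R, in ENPP2, which encodes autotaxin, in LOC124902897, 265602 bp from LRATD2, and at MITF, which had one cluster of 4 inside the gene and another 71415 bp beyond it.

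Counted by gene, with 50 kb added to either side, MAML2 (a Notch co-activator, 366.6 kb long) had 17 regions and MITF 13. PRICKLE2, TANC1, FMNL2 (a formin), FOXP1 (a forkhead factor), MAGI1 (a junction scaffold) and PTPRG (a receptor phosphatase) had 12 each, and ZNF608 and IGF1R 11. Gene lengths differ, and per 100 kb of window ZNF608 had 5.19, PRICKLE2 4.35, MITF 3.95 and PTPRG 1.44. In all, 3.20% of 20037 protein-coding genes had 3 or more regions.

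MITF is the gene of one of the 2 factors, and its 13 regions varied widely. Their mean GFP-cell percentile ran from 11.6 to 97.4. Of them 3 were called in all 6 MAFG-cell lists, at 69786919-69788199, 69820112-69824633 and 69838041-69840872 on chromosome 3. The region at 69860324-69862638 was called there by anti-MITF alone, with a fold of 9.29, 7.71 and 7.44. Another, at 69775106-69777760, had an anti-MAFG fold of 23.1, 19.4 and 15.3 in GFP cells and no call in MAFG cells.

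The regions were spread unevenly over chromosomes. Overall there were 2.11 per Mb, and 62.8% of co-bound regions were distal. Chromosome 19, the most gene-dense, held 7 regions, or 0.12 per Mb, and 12.5% of its 56 co-bound regions were distal. In GFP cells chromosome 19 had 948 H3K4me3 peaks over 58.6 Mb, and chromosome 3 had 760 over 198.2 Mb. Per 100 coding genes these were 65.3 and 71.3. The cause of the low count on chromosome 19 was not tested. Of the 192 chromosome 19 regions without H3K4me3, 3.65% were co-bound, against 20.98% over all chromosomes. Chromosome X held 46 regions (0.295 per Mb), and chromosomes 8, 20 and 3 were densest at 3.32, 3.27 and 3.26 per Mb.

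Within chromosomes, windows of 5 Mb had a median of 9 regions. The densest, from 70 to 75 Mb on chromosome 3, held 59, and its neighbours from 60 to 65 and 65 to 70 Mb held 58 and 46. This stretch contains PTPRG, PRICKLE2, MAGI1, MITF, FOXP1, RYBP and SHQ1. The share of regions without H3K4me3 that were co-bound was 37.3%, 39.5% and 35.1% in these windows. On chromosome 8 the windows from 120 to 135 Mb, around MYC and ASAP1, held 41, 46 and 40. Copy number was not measured.

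**Figure D5:**
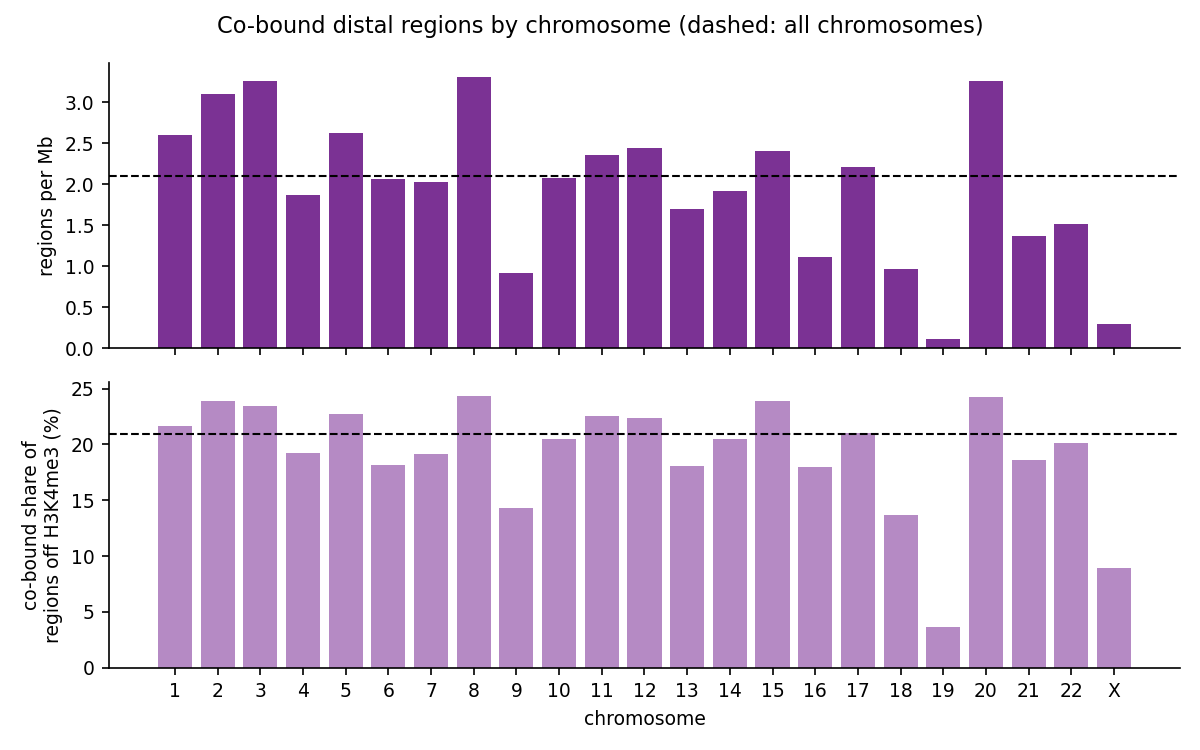
Co-bound distal regions per Mb (top) and as a percentage of GFP-cell regions without H3K4me3 (bottom) on each chromosome that has at least 1, with dashed lines at the values over all chromosomes, 2.11 per Mb and 20.98%. Of the chromosomes drawn, 19 and X have the shortest bars in both panels.

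Genes of pathways relevant to both factors were counted with 50 kb on either side, where 20.7% of all protein-coding genes had a region. Melanocyte pigment and lineage genes had one in 10 of 26 (38.5%): MITF, EDNRB with 5, MYO5A with 4, MLPH and TFAP2A with 2, and TYR, MLANA, ABCB5, BCL2A1 and TBX2 with 1. Some of these regions were nearer to other genes. An MLPH region lay inside RAB17, a MYO5A region inside MYO5C, and the TBX2 region was nearest to BCAS3. Longer genes also have wider windows. Dedifferentiation and AP-1 genes had one in 8 of 20, among them WWTR1 and ZEB2 with 4 each and EGFR and SNAI2 with 3. MAPK feedback genes had one in 5 of 12 (41.7%), with 4 at PHLDA1, 3 at SPRED2 and 2 at DUSP6. Keratinocyte and T cell genes had none, of 10 and 9, and hepatocyte genes had one in 3 of 10 (APOA2, TTR and HNF4A).

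The MAF and NRF2 target list was at the background, with 4 of 20 genes, and so was the list of small MAF proteins and partners, with NFE2L1 and BACH2 of 10. At HMOX1, which encodes heme oxygenase 1 (chr22:35376384-35377558), the GFP-cell fold was 10.6 and 7.34 in 2 anti-MAFG lists and 6.21 and 4.88 in 2 anti-MITF lists. In MAFG cells it was called by anti-MAFG in 3 of 3 (fold 12.5, 12.01 and 14.2) and by anti-MITF in none. TXNRD1, thioredoxin reductase, had 3 regions, of which that at chr12:104219133-104220157 was called by 3 anti-MAFG lists (12.9, 13.1 and 9.41) and 2 anti-MITF lists.

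Of all 6498 regions, 9.22% were called by anti-MAFG in MAFG cells and 12.8% by anti-MITF. Near the small MAF partners 3 of 4 were called by anti-MAFG and none by anti-MITF. Of these 3, 2 lay inside BACH2 and 1 near NFE2L1, which encodes NRF1 (fold 10.1, 7.13 and 12.7 at NFE2L1). The centre of the NFE2L1 region lay 45.8 kb from that gene's start, and its nearest protein-coding gene was CDK5RAP3, 19992 bp away. Near melanocyte genes 4 of 31 were called by anti-MAFG and 7 by anti-MITF. MITF alone held 13 of these regions, with 3 of the anti-MAFG and 4 of the anti-MITF calls. Near MAF and NRF2 targets it was 2 and 1 of 6, and near dedifferentiation and AP-1 genes 3 and 2 of 22. Near MAPK feedback genes it was 0 and 1 of 12, and near hepatocyte genes 1 and 1 of 3. At MLANA, a melanosome antigen gene (chr9:5895382-5896517), anti-MITF called the region in 3 of 3 lists (fold 7.72, 6.95 and 7.98) and anti-MAFG in 1. At MLPH, which links melanosomes to myosin, a region 2292 bp from the gene had an anti-MITF fold of 8.77, 10.2 and 10.04 in MAFG cells and no anti-MAFG call. EDNRB, the endothelin receptor of the melanocyte lineage, had one region called by anti-MITF only and another by anti-MAFG only. With 5 kb on either side, 5 of the 26 melanocyte genes had a region, against 10.4% of protein-coding genes. These counts are small and carry no test.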

How the data were processed

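CUT&RUN libraries of WM164 cells overexpressing GFP or MAFG were analysed from 14 deposited peak lists, 1 per library, so peaks were called per sample. Per the submitters' processing notes, the tools named are cutadapt 1.8.1, Bowtie2 2.4.1, MACS2 2.1.1.20160309, ChIPseeker 1.32.1 and deepTools, and the build GRCh38/hg38; the control used in calling is not given in the sources used here. The deposited values of a peak are the authors' fold enrichment (a linear ratio), p-value and q-value as −log10, score and summit. Percentiles of fold were taken within each list, and their mean over the 6 factor lists of GFP cells ranks the named regions.

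Peaks of the 6 factor lists of GFP cells on chromosomes 1 to 22, X and Y were merged where they overlapped, and a library called a region when a peak overlapped it by at least 1 bp. Comparison sets were co-bound regions at H3K4me3 and distal regions with at least 2 of 3 lists of 1 antibody and 0 of 3 of the other. Genes came from RefSeq GRCh38.p14. Of 20037 protein-coding genes 15843 had a start in the promoter table, which holds none on 1 chromosome, and symbols of all lists matched except 1 T cell gene. Shares were compared by two-sided exact permutation of libraries or, within libraries, by exact sign flips, with Benjamini-Hochberg adjustment over 9 tests; the contrast between antibodies and the MAFG-cell spacing were added after the data were seen. The members, gene lists and tests were chosen with earlier results of these data known. Named regions were the 12 with the best mean fold percentile, the 10 largest clusters, the 10 called in most MAFG-cell lists and the 10 genes with most regions; single-antibody examples, list examples and printed sequences were chosen after values were seen. On simulated lists the rule found 200 of 200 planted regions, and 8 unplanted regions also met it. The planted peaks stood at the same places in all 6 lists and the other peaks were placed at random. This checks the code and gives no error rate for the real lists. Alternatives covered the q threshold, the number of lists, trimmed summits, H3K4me3 distance, equal peak numbers, signal and width classes, gene windows, stitching gaps and leaving out each library. Python 3.11.15, pandas 2.3.3, scipy 1.17.1 and statsmodels 0.14.6 were used.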

Additional observations from a re-analysis of the deposited data

How the results depend on the processing

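The number of regions was 4217 with −log10 q of at least 5, 3184 with 3 of 3 lists, 3837 with summits trimmed to 200 bp, 4291 with equal numbers of best GFP-cell peaks, and 4576 to 7249 with single libraries left out. Over both antibodies the distal minus H3K4me3 difference in share called passed 0.05 (exact sign-flip permutation test, unadjusted p = 0.0312) at 3.26 points with the q threshold, 3.93 with 3 of 3 lists, 2.82 with trimmed summits, 2.36 within fold classes and 3.30 within width classes, a setting added after the data were seen. It ran from 1.204 to 2.72 with libraries left out and passed in 5 of those fits, those without GFP-cell anti-MAFG library 1 or 2 or any GFP-cell anti-MITF library. For anti-MITF alone, where the value was -0.0048, it was 2.73, 2.87, 2.21, 1.61 and 2.01 under the same settings, 0.032 with no H3K4me3 peak within 1000 bp, 0.735 with equal MAFG-cell peaks and -0.265 to 1.21 with libraries left out. Distal co-bound minus distal MITF regions went to -0.0037 within fold classes and -5.98 within width classes (3.88 to 5.87 with libraries left out), and minus distal MAFG regions to -2.46 within width classes (3.44 to 5.05). The cause was not tested. Of the 9 tests, only the sign-flip test over both antibodies can reach 0.05, so the others' side of the threshold is fixed by the design.

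The share with a neighbour was 16.8%, 14.6% and 12.8% with the q threshold, 3 of 3 lists and trimmed summits, 13.3% and 32.9% with gaps of 5 and 20 kb, and 17.4% to 22.8% with libraries left out. With 5 kb windows 5 melanocyte, 1 small MAF and 3 MAPK genes had a region. With 100 kb windows 4 small MAF, 1 keratinocyte and 1 T cell genes did, and by nearest gene 8 MAPK and 0 hepatocyte genes.

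The labels do not say whether libraries with the same number share a culture or batch. Deviations of their calls from the group mean correlated between -0.021 and 0.016. These are yes or no calls at regions selected by calls, so the values cannot decide whether the numbers pair the libraries. With the replicate number as a block, the anti-MITF minus anti-MAFG difference was 3.28 points (exact sign-flip permutation test, p = 0.25, the smallest possible). Peak lists hold no depth, so an uncalled region cannot be given a detection limit.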
